A study of Mus musculus with 8 samples.

Results

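Myelin loses integrity as the brain ages, and the comparison described here asks which transcripts change when a myelin defect is added to amyloid pathology. Single-nucleus profiles of Cnp-/- 5xFAD brains were compared with those of 5xFAD brains in each glial and vascular class. The members were the 2 Cnp-/- 5xFAD and the 2 5xFAD libraries, 4 of the 8 in the series, and were chosen by genotype alone. They held 30101 of 61949 nuclei, of which 9363 were glial or vascular and 20738 were neurons. A separate table of microglia and macrophages held 1613 of its 2291 nuclei in these libraries. The remaining 31848 nuclei, 678 of them in the microglia table, came from 2 wild-type (WT) and 2 Cnp-/- libraries, which carry no amyloid transgene and served as the comparison for the effect of Cnp loss without amyloid.

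All mice were C57BL6/J animals aged 6 months, and nuclei came from one brain hemisphere without cerebellum and olfactory bulb. 5xFAD mice carry mutant human transgenes, APP among them, under the neuronal Thy1 promoter and form amyloid plaques, so that the amyloid source is the neurons and not the glia described here. Cnp-/- mice lack 2',3'-cyclic nucleotide 3'-phosphodiesterase in every cell. The study's reporting summary says that animals were pooled for each single-cell replicate, while its methods mention pooling for another nuclear dataset and not for this one. The libraries are therefore not known to be single animals. The p-values set a difference against the spread between libraries, which may be partly technical. The labels give no sex, the reporting summary gives female for crosses with Cnp-/-, and the methods mention both sexes. In the neuronal profiles of all 8 libraries the Y-linked Ddx3y lay between 44.5 and 54.0 CPM (UMI counts scaled to a common library total) and the X-linked Xist between 0.298 and 0.506 CPM, which goes against female animals in any of them.

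CNP is an enzyme of non-compact myelin that keeps cytoplasmic channels in the sheath open, and mice without it make myelin of nearly normal structure but develop axonal swellings and gliosis with age. Oligodendrocyte precursors (OPCs) give rise to newly formed oligodendrocytes, which start the myelin programme, and these become mature oligodendrocytes (MOLs), which maintain the sheath. Astrocytes and microglia respond to both damaged myelin and amyloid, astrocytes with a reactive state marked by Gfap and Serpina3n, and microglia with a disease-associated (DAM) state that includes lipid-handling and antigen-presentation genes. Endothelial cells and pericytes form the blood-brain barrier.

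The 4 libraries held 7437 and 7225 nuclei in 5xFAD and 6990 and 8449 nuclei in Cnp-/- 5xFAD, with medians of 6867 and 6797 against 7806.5 and 6941 unique molecular identifiers (UMIs) per nucleus. For each class, UMIs were summed per library and the sums were tested gene by gene with the edgeR quasi-likelihood test after TMM normalization. CPM and statements on overlap use the same sums scaled to the profile's total without TMM, so they can differ from the fold changes. The fit used the profiles of all 8 libraries with at least 20 nuclei in the class, which share 1 estimate of the spread. Pericytes had 7 profiles, since Cnp-/- 2 held 19 nuclei, and the other exceptions are given with their class. As the threshold, a gene was called when its Benjamini-Hochberg adjusted p was under 0.05. If no gene differed, a share of about 0.05 of the genes tested would reach an unadjusted p under 0.05. In such sums, fewer cells expressing a gene and less RNA per cell cannot be told apart. In all 9 annotated classes, neurons included, the 5 marker genes were detected and their summed CPM was higher than in any other class. In newly formed oligodendrocytes of 3 of the 4 libraries the OPC markers summed higher than the class's own. Between 9 and 18 cell barcodes were shared by any pair of the 4 libraries, at most 0.249% of the smaller library.

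Cnp (ENSMUSG00000006782, chr11:100574904-100591729, GRCm38) was much lower in oligodendrocytes of Cnp-/- 5xFAD libraries. In MOLs it stood at 219 and 265 CPM in 5xFAD and at 24.0 and 32.8 CPM in Cnp-/- 5xFAD, against 283 and 321 CPM in WT and 23.1 and 23.2 CPM in Cnp-/-. It fell by a log2 fold change of −3.02 ± 0.24 (SE), with an adjusted p of 0.019. A low signal remained in both Cnp-/- genotypes. Newly formed oligodendrocytes held 54.0 and 64.3 against 15.3 and 14.9 CPM, OPCs 17.0 and 34.0 against 5.16 and 7.72 CPM and astrocytes 30.2 and 27.9 against 11.0 and 9.56 CPM. Microglia held 24.5 and 93.5 against 19.9 and 8.12 CPM and endothelial cells 20.7 and 15.9 against 8.63 and 2.31 CPM. In macrophages and pericytes both Cnp-/- 5xFAD profiles were at 0. Both Cnp-/- 5xFAD profiles were below both 5xFAD profiles in each of these classes except pericytes, where 5xFAD 2 was also at 0. Cnp passed the test in MOLs alone. In the neuronal profiles it was 11.1 and 11.1 against 9.28 and 8.60 CPM.

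In MOLs, 2 of 8761 genes tested were called, which is 0.0228% of them, 1 in each direction (0.0114% higher and 0.0114% lower). An unadjusted p under 0.05 was reached by 620 genes. The estimated spread between libraries was wider in MOLs than in any other class (biological coefficient of variation 0.466, next 0.299 in microglia). Between Cnp-/- and WT 0.0457% were called. Beside Cnp, the gene called was Cadps (ENSMUSG00000054423, chr14:12372563-12823079), which encodes a protein that primes dense-core vesicles for release. Cadps measured 36.1 and 42.5 CPM in 5xFAD and 487 and 269.9 CPM in Cnp-/- 5xFAD, and it rose by a log2 fold change of 3.34 ± 0.32 (SE), adjusted p 0.039. Without amyloid it measured 56.1 and 68.7 CPM in WT and 175 and 198 CPM in Cnp-/-, a log2 difference of 1.66. The 2 Cnp-/- 5xFAD profiles differed from each other by more than the 5xFAD profiles did, but the lower of them was far above both controls. No gene was called when either 5xFAD library or Cnp-/- 5xFAD 1 was left out, and 1 when Cnp-/- 5xFAD 2 was left out, while DESeq2 called 102 genes higher and 84 lower.

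Further genes of MOLs lay close to the threshold and are described here because of their values. None of them passed the test. Dcc, the netrin receptor, measured 424 and 330.3 CPM in 5xFAD and 1067 and 1034 CPM in Cnp-/- 5xFAD (log2 fold change 1.54 ± 0.17 (SE), adjusted p 0.079). Kirrel3, an immunoglobulin-family adhesion molecule, measured 1658 and 1729.8 against 4267 and 4695 CPM, and Ephb2, an ephrin receptor, 82.7 and 71.7 against 345 and 344 CPM. Tmod1, which caps actin filaments, measured 382 and 385 against 889 and 983 CPM, and Fam13c 327 and 294 against 914 and 843 CPM. In each of these genes both Cnp-/- 5xFAD libraries were above both 5xFAD libraries, as in 16% of all genes tested. Their adjusted p values in edgeR were 0.079 to 0.18.

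Without amyloid the same MOL genes were compared in the other 4 libraries. The log2 difference of Cnp-/- from WT was 1.74 for Fam13c, 2.27 for Ephb2, 1.38 for Tmod1, 1.35 for Kirrel3 and 0.74 for Dcc, beside 1.57, 2.22, 1.36, 1.48 and 1.54 on the amyloid background. These 2 comparisons share no library. Among genes with lower values, Enpp6, a choline phosphodiesterase that marks newly formed oligodendrocytes, measured 189 and 168 CPM in 5xFAD and 56.2 and 46.2 CPM in Cnp-/- 5xFAD. Gramd1b, which moves sterols from the plasma membrane to the endoplasmic reticulum, measured 147 and 215 against 40.5 and 19.5 CPM, and the axon guidance receptor Robo1 699.8 and 353 against 84.3 and 9.23 CPM. Their adjusted p values were 0.18, 0.18 and 0.31.

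**Figure D1:**
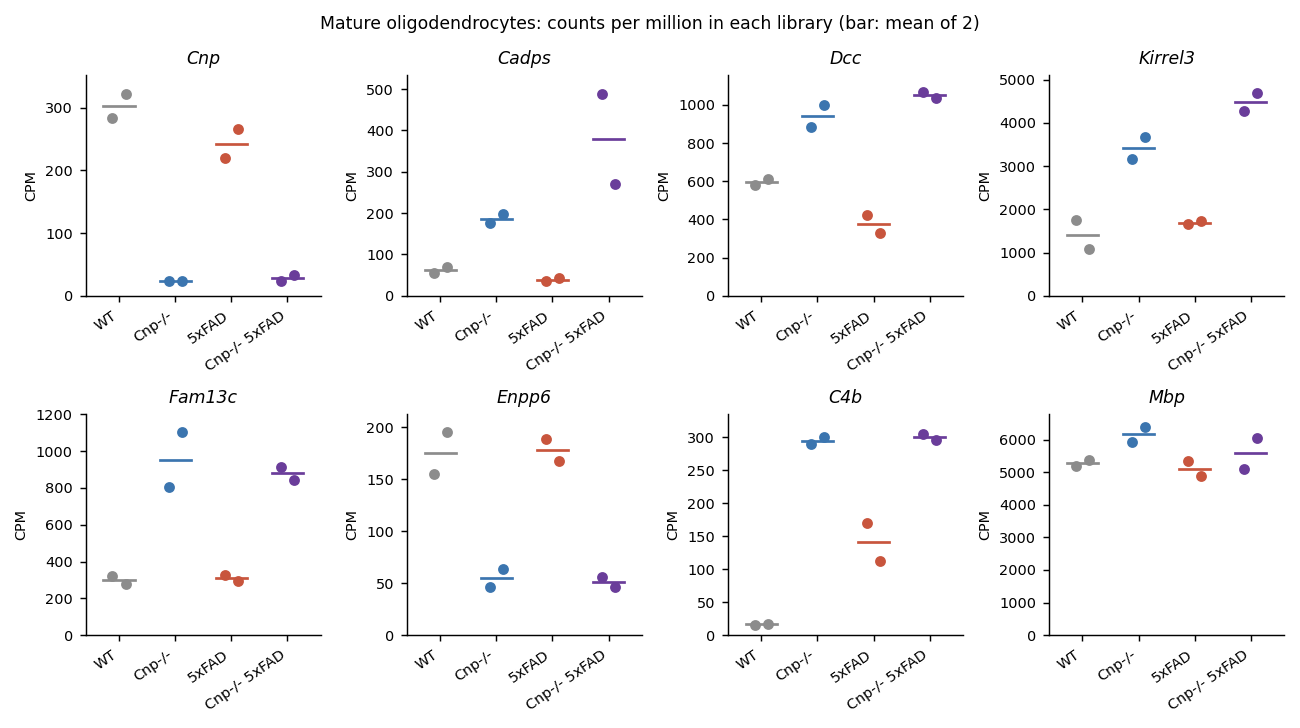
Levels of 8 genes in mature oligodendrocyte profiles of the 8 libraries, in CPM on a linear axis from 0, with 1 point per library and a bar at the mean of the 2 libraries of each genotype. Cnp is low and Cadps, Dcc, Kirrel3 and Fam13c are high in both Cnp-/- genotypes, C4b is near 0 in WT alone, and Mbp differs little among the 4 genotypes.

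C4b (ENSMUSG00000073418, chr17:34728380-34743882), which encodes complement component C4 and belongs to the disease-associated oligodendrocyte genes, showed a different order of genotypes. It measured 15.5 and 16.9 CPM in WT, 170.4 and 112 CPM in 5xFAD, 289.98 and 300.03 CPM in Cnp-/- and 305 and 297 CPM in Cnp-/- 5xFAD. Amyloid-free Cnp-/- and Cnp-/- 5xFAD profiles overlapped in level. The difference on the amyloid background was 1.15 ± 0.23 (SE) on the log2 scale (adjusted p 0.26 by edgeR and 0.00087 by DESeq2), whereas without amyloid it was 4.26 (adjusted p 0.003), and the difference between these differences did not pass the test (adjusted p 0.28). Of the 15 disease-associated oligodendrocyte genes 8 were tested, none was called, 4 had a value above 0 and their median log2 fold change was −0.04, beside −0.01 over all genes tested. The same list had a median of 0.70 without amyloid. Il33, an alarmin, measured 508 and 504 against 446 and 525 CPM, and the transcription factor Stat3 110.4 and 102 against 147 and 125 CPM.

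Myelin genes other than Cnp were at closely similar levels in MOLs of both genotypes. None of the 17 tested was called, 11 lay above 0, and their median log2 fold change was 0.13. Mbp, the main adhesive protein of compact myelin, measured 5343 and 4875 CPM in 5xFAD and 5108 and 6062 CPM in Cnp-/- 5xFAD. Mag, an adhesion molecule facing the axon, measured 1386 and 1298 against 1367 and 1485 CPM. In 4 myelin genes both Cnp-/- 5xFAD libraries were above both 5xFAD libraries, where 16% of all genes tested did so. The 1 myelin gene lower without overlap was Anln, which encodes a septin-scaffolding protein of myelin, at 602 and 449 against 200.1 and 191 CPM (log2 fold change −1.36 ± 0.26 (SE), adjusted p 0.24), where 24.8% of all genes tested were lower without overlap.

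The lipid and regulatory programme of MOLs gave no called gene either. The 10 myelin lipid synthesis genes had a median log2 fold change of −0.04 with 4 above 0. Aspa, which supplies acetate for lipid synthesis, measured 1196 and 1374 against 1408 and 1671 CPM, Fa2h, which makes hydroxylated fatty acids, 979.5 and 910.2 against 686 and 799 CPM, and Ugt8a, the galactosylceramide synthase, 945 and 843 against 691 and 771 CPM. The 12 cholesterol synthesis genes tested had a median of −0.07, with 5 above 0. The 10 oligodendrocyte transcription factors had a median of 0.11, with 6 above 0, and Zfp536 measured 2318 and 2107 against 3005 and 2909 CPM. Summed transcripts of the 5 astrocyte markers in MOL profiles were 314 and 334 CPM in 5xFAD and 233 and 231 CPM in Cnp-/- 5xFAD, and those of the 5 OPC markers 35.5 and 52.6 against 13.2 and 15.4 CPM. The part of these transcripts in the MOL differences was not tested.

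Newly formed oligodendrocytes had 1 called gene of 7248 tested, or 0.0138%, beside 0.11% between Cnp-/- and WT. An unadjusted p under 0.05 was reached by 559 genes. Eml1 (ENSMUSG00000058070, chr12:108370957-108539617), a microtubule-associated protein, measured 93.6 and 85.8 CPM in 5xFAD and 346 and 238 CPM in Cnp-/- 5xFAD, and it rose by a log2 fold change of 1.76 ± 0.25 (SE), adjusted p 0.025. It was 100.2 and 112 CPM in WT and 216 and 254 CPM in Cnp-/-, so both Cnp-/- groups were above both groups with Cnp. In MOLs Eml1 measured 457 and 389.6 against 599 and 623 CPM. Genes chosen for values near the threshold were Tmod1 (37.8 and 73.9 against 170.3 and 169 CPM), the claudin Cldn14 (21.6 and 19.1 against 119 and 68.3 CPM) and Qdpr, a dihydropteridine reductase (32.4 and 35.7 against 114 and 137 CPM), with adjusted p of 0.058, 0.058 and 0.077. The Eml1 call was lost when either 5xFAD library was left out (adjusted p 0.066 and 0.17) and when Cnp-/- 5xFAD 1 was left out (0.18), and the number of called genes ranged from 0 without Cnp-/- 5xFAD 1 to 7 without Cnp-/- 5xFAD 2.

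The myelin genes of newly formed oligodendrocytes were mostly higher with Cnp loss, although none was called. Of the 16 tested, 15 lay above 0 and in 14 both Cnp-/- 5xFAD libraries exceeded both 5xFAD libraries, where 15.7% of all genes tested did so. The median log2 fold change was 0.91, beside 0.01 over all genes tested, and without amyloid the list had a median of 0.91. Mbp measured 1359.7 and 1003 against 2659 and 1905 CPM (log2 fold change 1.01 ± 0.29 (SE), adjusted p 0.37). Nfasc, which anchors the paranodal junction, measured 1205 and 712 against 2435 and 1269 CPM, and Mag 232 and 217 against 488 and 327 CPM. Anln was again the exception, at 101 and 52.4 against 40.7 and 26.7 CPM, where 23.3% of all genes tested were lower without overlap. All 8 myelin lipid synthesis genes tested lay above 0, with a median of 0.64, while 2 of 10 cholesterol synthesis genes did, with a median of −0.35.

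MOL and astrocyte markers also differed in newly formed oligodendrocytes. The MOL markers share members with the myelin genes, Mag, Mobp and Opalin among them, so their values partly repeat those above. Summed transcripts of the 5 MOL markers were 1610 and 1470.2 CPM in 5xFAD and 2636 and 2354 CPM in Cnp-/- 5xFAD, and ranged from 890.1 to 2329 CPM between the 2 WT libraries. The 5 OPC markers summed to 6316 and 5397 against 5119 and 5518 CPM and overlapped. The 5 markers of newly formed oligodendrocytes summed to 4872 and 3281 against 5254 and 4101 CPM, which overlap. The 5 astrocyte markers summed to 2435 and 3224 against 1690.3 and 1762 CPM, and 4 of 18 astrocyte support genes lay above 0 in this class. Of the 11 genes of the newly formed stage 10 lay above 0, with a median of 0.26. Bcas1, which marks early myelinating cells, measured 1732 and 1198 against 1655 and 1569 CPM. Whether a different mix of stages or of astrocyte transcripts accounts for the myelin gene values was not tested.

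OPCs gave no called gene (0% of 9264 tested) in edgeR or DESeq2, and 313 genes had an unadjusted p under 0.05. Of the 13 precursor genes tested 7 lay above 0, with a median log2 fold change of 0.02, and 3 were higher and 3 lower without overlap, where 13.6% and 19.6% of all genes tested were. Lhfpl3, a precursor-enriched membrane protein, measured 7324 and 6377 CPM in 5xFAD and 6795 and 6442 CPM in Cnp-/- 5xFAD, and Tnr, which encodes the matrix protein tenascin-R, 3888 and 3697 against 4267 and 4204 CPM. Their log2 fold changes were −0.01 and 0.20. Summed transcripts of the 6 oligodendrocyte marker genes in OPC profiles were 120.1 and 158 against 273 and 261 CPM. The planar polarity gene Prickle1, chosen for its value, measured 37.8 and 67.9 against 117 and 129 CPM in OPCs, 236 and 169 against 506 and 383 CPM in newly formed oligodendrocytes and 335 and 490.4 against 948 and 992 CPM in MOLs, without overlap in any of these classes and without passing the test in any (adjusted p 1, 0.12 and 0.2).

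Astrocytes showed higher values of most reactive genes, none of which passed the test. In edgeR 0 of 11809 genes were called (0%), 247 had an unadjusted p under 0.05, and DESeq2 called 3 higher and 1 lower. Of the 29 reactive astrocyte genes 22 were tested and 21 lay above 0. Their median log2 fold change was 0.53, beside 0.00 over all genes tested, and 0.52 without amyloid. In 12 of them both Cnp-/- 5xFAD libraries exceeded both 5xFAD libraries, where 12.8% of all genes tested did so. The exception was Tnc, which encodes tenascin-C, at 145 and 123 against 103 and 72.0 CPM, where 19.1% of all genes tested were lower without overlap.

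The most abundant reactive genes overlapped between genotypes. Apoe, the main lipid carrier of the brain, measured 1362 and 2387 CPM in 5xFAD and 1751 and 2476 CPM in Cnp-/- 5xFAD. Cst3, a protease inhibitor, measured 724 and 1202 against 812 and 1414 CPM, and Clu, a secreted chaperone, 383 and 526 against 494 and 759 CPM. In each of these genes replicate 1 of either genotype was below both replicates 2. Less abundant genes, picked for their values, did not overlap. Gfap (ENSMUSG00000020932, chr11:102887336-102900912), the intermediate filament of reactive astrocytes, measured 219.7 and 252 against 356 and 426 CPM (log2 fold change 0.77 ± 0.36 (SE)). Gfap lies on chromosome 11, as Cnp does, and any part of this position in its values was not tested. Without amyloid it measured 162 and 329 CPM in WT and 327 and 563 CPM in Cnp-/-, so the WT libraries spanned the 5xFAD range. Serpina3n (ENSMUSG00000021091, chr12:104406729-104414329), a secreted protease inhibitor, measured 4.02 and 5.58 against 17.1 and 27.4 CPM (log2 fold change 2.25 ± 0.77 (SE)), and the log2 difference without amyloid was 3.81.

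Vim, another intermediate filament, measured 26.2 and 32.3 against 48.8 and 110.3 CPM, Osmr, the oncostatin M receptor, 24.1 and 23.4 against 41.5 and 37.6 CPM, and the hyaluronan receptor Cd44 15.3 and 16.7 against 29.3 and 31.2 CPM. C4b measured 125 and 118 against 211 and 149.8 CPM on the amyloid background, with 69.5 and 61.1 CPM in WT and 179.6 and 255 CPM in Cnp-/-. The major histocompatibility class I gene H2-D1, whose reads may be shared with near-identical relatives, measured 3.62 and 5.58 against 18.3 and 15.9 CPM, while its difference without amyloid had the opposite sign (−1.0 on the log2 scale). The smallest adjusted p of any gene in astrocytes was 0.95 in edgeR, so that by this test none of these differences is separable from the spread between libraries after correction.

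**Figure D2:**
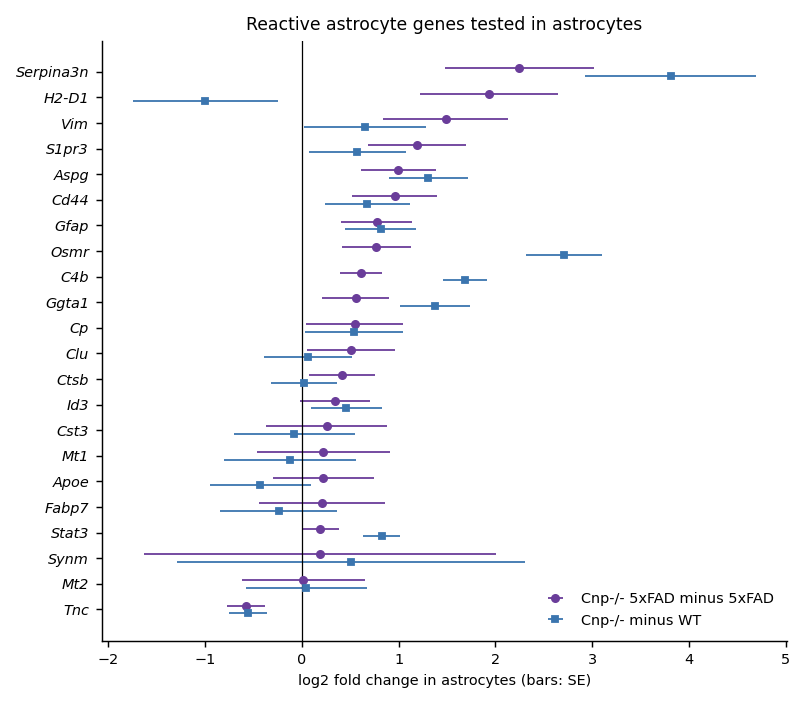
Log2 fold change with its standard error for the 22 reactive astrocyte genes tested, for Cnp-/- 5xFAD minus 5xFAD and for Cnp-/- minus WT. On the amyloid background 21 genes lie above 0 and Tnc below, with wide error bars for the low genes.

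Genes of astrocyte support functions differed little. Of the 18 tested 9 lay above 0 with a median of −0.02, and Slc1a2, the main glutamate transporter, measured 7047 and 7093 against 7089 and 8656 CPM. Gpc5, a heparan sulphate proteoglycan, measured 9965 and 9512 against 8418 and 9180.3 CPM. The 6 regional astrocyte genes had a median of −0.26, and Agt, which is expressed by astrocytes of subcortical regions, measured 28.6 and 18.4 against 6.1 and 7.65 CPM. Without amyloid the same list had a median of −1.17. Transcripts of other cells moved as well. The 6 oligodendrocyte marker genes summed to 61.2 and 55.8 against 117 and 157 CPM in astrocyte profiles, and the 10 neuronal markers to 35.0 and 93.7 against 114 and 123 CPM. Their part, and that of the regions sampled, in the reactive gene values was not tested.

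The astrocyte share of nuclei was lower in both Cnp-/- 5xFAD libraries. Astrocytes made up 10.4% and 9.12% in 5xFAD and 6.92% and 6.98% in Cnp-/- 5xFAD. Among glial and vascular nuclei alone the shares were 26.0% and 31.6% against 23.7% and 26.0% and overlapped (exact permutation p 0.667). OPCs made up 4.15% and 2.69% against 2.48% and 2.15%, newly formed oligodendrocytes 1.40% and 1.01% against 0.930% and 0.769%, and MOLs 13.7% and 7.61% against 9.71% and 8.15%. The astrocyte, OPC and newly formed oligodendrocyte shares of all nuclei did not overlap and the MOL shares did. The exact permutation test over 4 libraries can give no p below 0.333 (two-sided), and each of the shares without overlap had that value. Pericytes made up 0.820% and 0.581% against 0.401% and 0.556% of all nuclei without overlap, and 2.05% and 2.02% against 1.37% and 2.07% of glial and vascular nuclei with overlap (exact permutation p 1).

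Microglia were tested as the sum of their annotated subpopulations without macrophages. No gene was called by edgeR (0% of 8185 tested), 246 had an unadjusted p under 0.05, and DESeq2 called 6 higher and 1 lower. Kirrel3 measured 239 and 263 CPM in 5xFAD and 622 and 729 CPM in Cnp-/- 5xFAD (adjusted p 0.31). Microglia annotated as myelin transcript-enriched (MyTE) are part of this sum, at 47 and 30 against 47 and 53 nuclei. In them Kirrel3 measured 1025 and 1136 against 2235 and 2452 CPM. MyTE profiles held 161955 of 694890 and 99510 of 459690 UMIs of the microglial sum in 5xFAD. In Cnp-/- 5xFAD they held 188836 of 702785 and 143166 of 492454. At these levels most Kirrel3 UMIs of the sum lay in MyTE nuclei, and their part in its difference between genotypes was not tested. Mindy2, a deubiquitinase, measured 54.7 and 58.7 against 189 and 181 CPM, and Cers6, a ceramide synthase, 92.1 and 63.1 against 245 and 225 CPM. These genes, and the next, were chosen for their values, and their libraries did not overlap, where 16.9% of all genes tested were higher and 18.4% lower without overlap. Pde4d (ENSMUSG00000021699, chr13:108449948-109953461), a cAMP phosphodiesterase, measured 184 and 97.9 CPM in 5xFAD and 14.2 and 20.3 CPM in Cnp-/- 5xFAD, beside 291 and 328 CPM in WT and 47.2 and 175 CPM in Cnp-/-. Apoe measured 239 and 281 against 428 and 774 CPM (log2 fold change 1.22 ± 0.26 (SE), adjusted p 0.82).

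By function, the antigen-presentation and interferon genes of microglia lay mostly above 0, 12 of 14 tested with a median of 0.31, beside 0.00 over all genes tested. Lipid-handling genes lay above 0 in 9 of 12, with a median of 0.22, and Abca1, which exports cholesterol, measured 351 and 405 against 477 and 577 CPM. Homeostatic genes lay above 0 in 3 of 18, with 6 lower without overlap, where 18.4% of all genes tested were, with a median of −0.11, and Tgfbr1, a receptor for the cytokine that maintains the homeostatic state, measured 2255 and 2243 against 2016 and 2211 CPM. DAM genes lay above 0 in 17 of 25, with 8 higher without overlap, where 16.9% of all genes tested were, with a median of 0.14, which was 0.23 (20 of 24 above 0) without MyTE nuclei and 0.07 (16 of 26) with the microglia of the all-cell annotation, and Myo1e, an unconventional myosin, measured 899 and 972 against 1017 and 812 CPM. Of the 12 complement and phagocytosis genes 6 lay above 0. No member of these lists was called. Summed transcripts of the oligodendrocyte marker genes in microglia were 1787 and 1799 against 1894 and 2379.9 CPM, and those of the endothelial markers 142 and 115 against 277 and 183 CPM. The OPC markers summed to 13 and 4.35 against 66.9 and 58.9 CPM and the astrocyte markers to 273 and 296 against 408 and 379.7 CPM. The part of these transcripts in the values above was not tested.

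The same genes were read in the subpopulations, whose nuclei are part of the microglial sum and so give no second observation. In homeostatic microglia (0 of 4566 genes called, 0%, 118 with an unadjusted p under 0.05, 0 by DESeq2) Mindy2 measured 20.2 and 29.0 against 209.6 and 203 CPM and Pde4d 207 and 122 against 5.66 and 6.75 CPM, with adjusted p of 0.14 and 0.14. Neither overlapped, where 15.2% of all genes tested were higher and 17.2% lower without overlap, and 0.0876% were called between Cnp-/- and WT. In this subpopulation homeostatic genes lay above 0 in 9 of 18, with a median of 0.02, and DAM genes in 4 of 12 tested, with a median of −0.06. The subpopulation shares differed between the genotypes, and their part in the summed values was not tested. In amyloid-DAM (0 of 3919 called, 0%, 118 with an unadjusted p under 0.05, 1 higher and 1 lower by DESeq2, fitted with 4 amyloid-DAM and 4 myelin-DAM profiles, the latter from Cnp-/- and Cnp-/- 5xFAD, so that both Cnp-/- 5xFAD libraries entered with 2 profiles treated as independent, and 0 called with the 4 amyloid-DAM profiles alone) Pde4d was at 55 and 17 UMIs in 5xFAD and at 0 UMIs in both Cnp-/- 5xFAD profiles, which is at least 9.35-fold lower against a floor of 3 counts. Cd44 was at 0 in both 5xFAD profiles and at 49.8 and 48.3 CPM in Cnp-/- 5xFAD, at least 3.76-fold higher. Abca1 measured 325 and 313 against 502 and 532 CPM in these cells and Apoe 246 and 296 against 390.2 and 981 CPM. None of these overlapped between genotypes, where 15.6% of all genes tested in amyloid-DAM were higher and 16.8% lower without overlap. OPC markers in amyloid-DAM summed to 7.13 and 5.58 against 45.7 and 69.1 CPM and astrocyte markers to 239 and 184 against 403 and 394 CPM, and their part was not tested. The myelin-DAM class had too few nuclei in 5xFAD for a summed profile, at 1.02% and 2.06% of microglia and macrophages against 16.6% and 13% in Cnp-/- 5xFAD. The authors named this class from the genotypes of its nuclei.

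In summed microglia the effect of Cnp loss differed with the background for a few genes by the edgeR test. The WT profiles used there rest on 168 and 51 nuclei. The difference between the effect on the amyloid background and the effect without it passed the edgeR test for 4 of 8185 genes (0.0489%), all with a smaller value on the amyloid background, while DESeq2 called 9 genes with a larger and 58 with a smaller value. Cacna1a (ENSMUSG00000034656, chr8:84388440-84640246), a calcium channel subunit, measured 0 and 11.3 CPM in WT, 283 and 281 CPM in Cnp-/-, 1032 and 977 CPM in 5xFAD and 997 and 812 CPM in Cnp-/- 5xFAD. Prkg1, a cGMP-dependent kinase, measured 24.6 and 34.0, 255 and 308, 381 and 450.3 and 387 and 305 CPM in the same order. Ank, a membrane transporter, measured 77.9 and 45.3, 309 and 366, 1109.5 and 966 and 919 and 863 CPM. In these 3 genes Cnp-/- microglia were above WT, and microglia of both amyloid genotypes were above or near the highest Cnp-/- level. Within homeostatic microglia 0 of 4566 genes passed the edgeR test of this difference. It was −5.53 for Cacna1a (adjusted p 0.116), −3.68 for Prkg1 (0.127) and −2.84 for Ank (0.333) on the log2 scale there. Without amyloid 1.92% of genes were called in microglia between Cnp-/- and WT, 136 higher and 21 lower. The number of genes with a different effect ranged from 1 to 16 over the libraries left out, the highest without Cnp-/- 2 and 11 without WT 2, 2 without WT 1, Cnp-/- 1 or Cnp-/- 5xFAD 1 and 1 without 5xFAD 1, 5xFAD 2 or Cnp-/- 5xFAD 2.

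**Figure D3:**
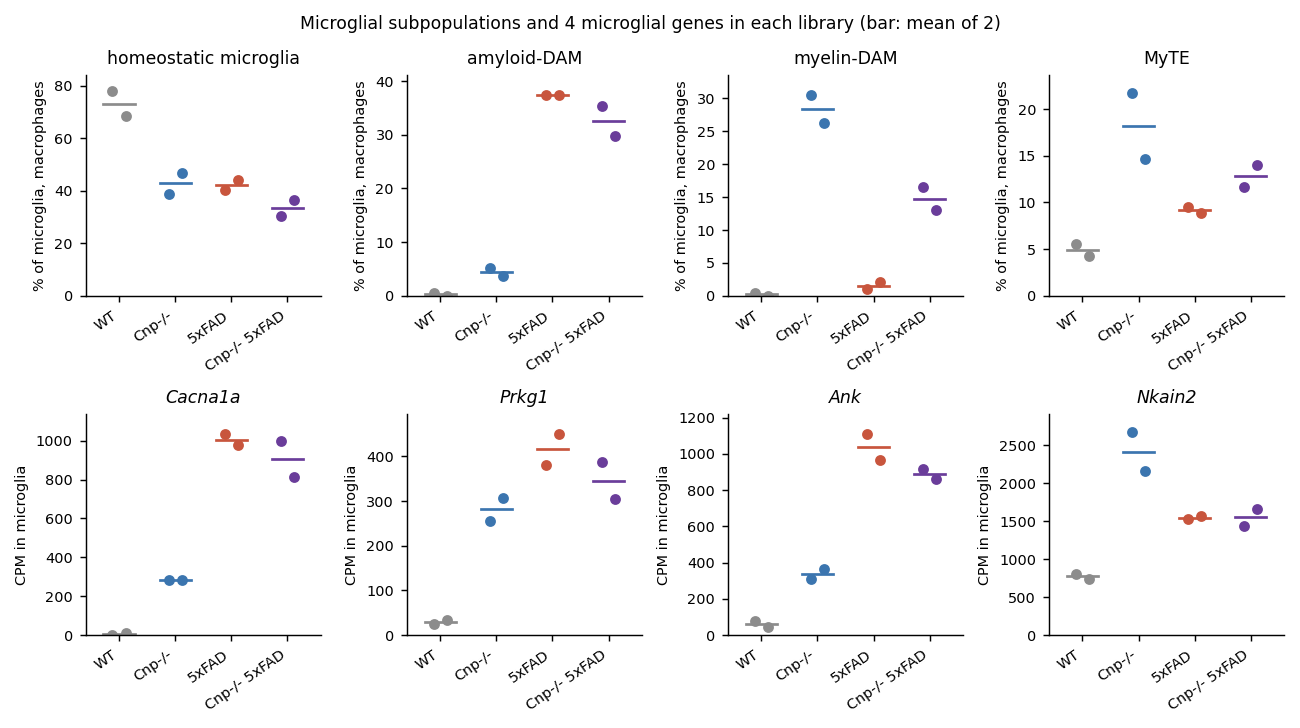
Share of 4 microglial subpopulations among microglia and macrophages in percent, and levels of Cacna1a, Prkg1, Ank and Nkain2 in summed microglia in CPM, with 1 point per library and bars at the mean of 2. The 4 genes are low in WT, intermediate in Cnp-/- for 3 of them, and at similar levels in 5xFAD and Cnp-/- 5xFAD.

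For the other glial and vascular classes with all 4 genotypes, no gene passed the test of this difference in edgeR. An unadjusted p under 0.05 was reached by 299 of 8761 genes in MOLs, 307 of 7248 in newly formed oligodendrocytes and 342 of 9264 in OPCs. In astrocytes 493 of 11809 genes reached it and in endothelial cells 690 of 11754. This was more than a share of 0.05 in endothelial cells alone among these classes, and less in the others. In pericytes Cnp-/- had 1 profile, so its spread was taken from the other genotypes. DESeq2 called 11 genes in MOLs, 9 in astrocytes, 34 in endothelial cells and 0 in the other 3 classes. In endothelial cells edgeR called 112 genes when WT 1 was left out.

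Microglia annotated as myelin transcript-enriched (MyTE), which carry oligodendrocyte transcripts beside their own, had 11 called genes of 4264 tested (0.258%), 6 higher (0.141%) and 5 lower (0.117%). In them 255 genes had an unadjusted p under 0.05. Summed transcripts of the 6 oligodendrocyte marker genes in these nuclei were 7181 and 7627 CPM in 5xFAD and 6540.1 and 8005 CPM in Cnp-/- 5xFAD, and those of the 5 microglia markers 2945 and 2924 against 2966 and 2899 CPM. Of the 10 neuronal markers 5, among them Snap25, Syt1 and Grin1, were at 0 in all 4 profiles, and all 10 summed to 0 and 20.1 against 21.2 and 0 CPM. The fit used 6 profiles because no WT profile had enough nuclei. These came from 47 and 30 nuclei in 5xFAD, 47 and 53 in Cnp-/- 5xFAD and 59 and 20 in Cnp-/-.

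Opcml, an IgLON adhesion molecule, was at 0 in both 5xFAD profiles and at 244 and 203 CPM in Cnp-/- 5xFAD, at least 9.72-fold higher (adjusted p 0.0036). Kirrel3 rose from 1025 and 1136 to 2235 and 2452 CPM, a log2 fold change of 1.12 ± 0.16 (SE) (adjusted p 0.0036). Ephb2 rose from 43.2 and 60.3 to 233 and 237 CPM (adjusted p 0.017), Csmd2 from 37.0 and 0 to 180.1 and 196 CPM (0.024), and Tnr was at 0 in 5xFAD and at 143 and 112 CPM (0.024). The sixth called gene, Fam13c, rose from 111 and 171 to 445 and 384 CPM (0.025). Among the genes that fell, the Slit receptor Robo1 measured 253 and 171 against 21.2 and 6.98 CPM (log2 fold change −3.78 ± 0.56 (SE), adjusted p 0.0036), and the synaptic scaffold Dlg2 247 and 312 against 53.0 and 69.8 CPM (0.0095). The catenin Ctnna2, the receptor phosphatase Ptprd and Sez6l2 fell from 932 and 703 to 286 and 342 CPM, from 1741 and 2362 to 1054 and 678 CPM and from 315 and 231 to 74.1 and 83.8 CPM. None of the 11 overlapped between genotypes, where 18.2% of all genes tested were higher and 17.2% lower without overlap. In amyloid-free Cnp-/- profiles Opcml measured 11.3 and 74.4 CPM, Tnr 5.63 and 0 CPM and Kirrel3 1779 and 1878 CPM. Ephb2 measured 124 and 112 CPM there, Csmd2 203 and 223 CPM and Fam13c 372 and 521 CPM. Of the lower genes, Robo1 measured 45.0 and 18.6 CPM, Dlg2 214 and 223 CPM and Ctnna2 653 and 446 CPM. Ptprd measured 2342 and 1525 CPM and Sez6l2 169 and 112 CPM.

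The genes called in MyTE nuclei were looked up in MOLs. There Kirrel3, Ephb2 and Fam13c were higher as described, Csmd2 measured 119 and 87.3 against 488 and 436 CPM and Robo1 699.8 and 353 against 84.3 and 9.23 CPM. Opcml went the other way, at 72.1 and 63.8 against 19.0 and 33.9 CPM in MOLs. Summed OPC markers in MyTE profiles were 37.0 and 10.0 against 175 and 119 CPM, and endothelial markers 74.1 and 50.2 against 281 and 203 CPM. Their part in these calls was not tested. Of the 16 myelin genes tested in MyTE nuclei 7 lay above 0, with a median of −0.04, beside −0.01 over all genes. The number of called genes was 6 without 5xFAD 1, 25 without 5xFAD 2, 27 without Cnp-/- 5xFAD 1 and 13 without Cnp-/- 5xFAD 2, and DESeq2 called 3 of them, Opcml, Kirrel3 and Ptprd.

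**Figure D4:**
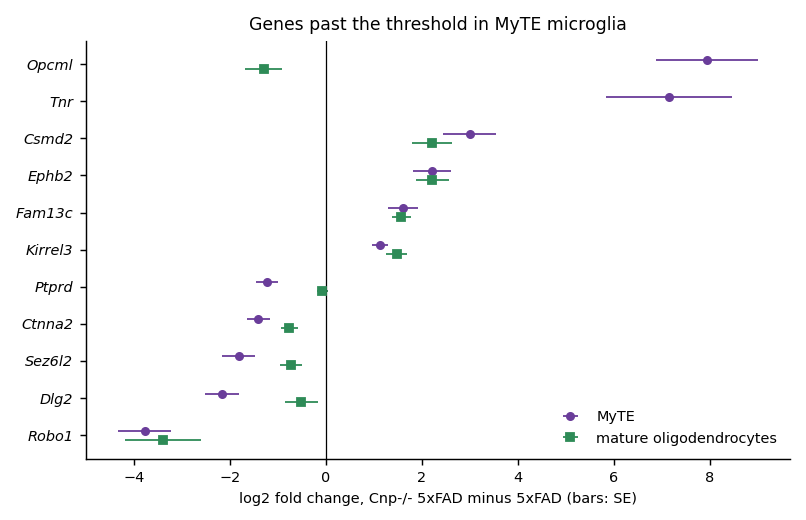
Log2 fold change with its standard error of the 11 genes called in MyTE microglia, in MyTE microglia and in mature oligodendrocytes, for Cnp-/- 5xFAD minus 5xFAD. Tnr was not tested in mature oligodendrocytes, Opcml lies above 0 in MyTE microglia and below 0 in mature oligodendrocytes, and the other 9 genes lie on the same side of 0 in both. The fitted values of Opcml and Tnr in MyTE microglia rest on 0 counts in 5xFAD and are not sizes to be read.

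Macrophages had 5 profiles in the fit, the only one outside the 4 compared being WT 1, and rest on 57 and 26 nuclei in 5xFAD and 24 and 26 in Cnp-/- 5xFAD. Of 2141 genes tested 3 were called lower (0.14%) and 0 higher, with 77 at an unadjusted p under 0.05 and 0 in DESeq2. Pde4d was at 94 and 17 UMIs in 5xFAD and at 5 and 5 UMIs in Cnp-/- 5xFAD, or 703 and 389 against 93.1 and 107 CPM, and fell by a log2 fold change of −2.54 ± 0.46 (SE) (adjusted p 3.4e-05). This call was lost without 5xFAD 1 (adjusted p 0.64) and without Cnp-/- 5xFAD 1 (0.91), and the count of called genes was 1 without 5xFAD 1, 3 without 5xFAD 2, 0 without Cnp-/- 5xFAD 1 and 3 without Cnp-/- 5xFAD 2. The other 2 called genes, Hbb-bs of red blood cells and Ptgds of the meninges, were high in 5xFAD 1 alone, at 583 and 0 against 0 and 0 CPM and 799.8 and 0 against 205 and 21.3 CPM, and overlapped. Hbb-bs reads may also come from near-identical globin genes.

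Of the 10 border macrophage genes 9 lay above 0 in macrophages, with a median of 0.30 beside 0.02 over all genes, and 5 were higher without overlap, where 15.9% of all genes tested were. Dab2, an endocytic adaptor, measured 2511 and 2265 against 3073 and 3602 CPM, and the mannose receptor Mrc1 2668 and 2974 against 2812 and 3815 CPM. F13a1, a coagulation factor subunit, measured 3453 and 4300.5 against 4469.9 and 3389 CPM and overlapped. Lipid-handling genes lay above 0 in 7 of 8, with a median of 0.69, and Apoe measured 1712 and 1487 against 1881 and 4455 CPM (adjusted p 0.081). Vascular markers were higher in the Cnp-/- 5xFAD macrophage profiles too. Endothelial markers summed to 59.8 and 114 against 149 and 256 CPM, pericyte markers to 37.4 and 45.8 against 55.9 and 107 CPM and smooth muscle and fibroblast genes to 14.9 and 0 against 55.9 and 107 CPM, and their part was not tested.

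All genes called in endothelial cells were lower and known neuronal genes led them. Of 11754 genes tested 47 fell (0.4%) and 0 rose, with log2 fold changes from −3.29 to −1.29 and a median of −1.93. An unadjusted p under 0.05 was reached by 1069 genes. None of the 47 overlapped, where 20.7% of all genes tested were lower without overlap. The 5 with the smallest p are all known from neurons. Pde1a (ENSMUSG00000059173, chr2:79834453-80129458), a calcium-dependent phosphodiesterase, measured 201 and 169 CPM in 5xFAD and 23.7 and 32.4 CPM in Cnp-/- 5xFAD (log2 fold change −2.68 ± 0.22 (SE), adjusted p 0.0053). Meg3 (ENSMUSG00000021268, chr12:109541001-109571726), an imprinted long non-coding RNA of neurons, measured 1509 and 1818 against 299.8 and 439.9 CPM, and the splicing regulator Rbfox1 797 and 915 against 153 and 197 CPM. Celf4, an RNA-binding protein, and Dlgap2, a postsynaptic scaffold, measured 169.8 and 151 against 38.8 and 27.7 CPM and 264 and 279 against 56.1 and 80.1 CPM.

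Neuronal transcripts moved with this result. All 10 neuronal markers lay below 0 in endothelial cells and 3 of them, Meg3, the NMDA receptor subunit Grin1 and the SNARE protein Snap25, fell. They summed to 2592 and 3018 CPM in 5xFAD, 562 and 814 CPM in Cnp-/- 5xFAD, 1717 and 1031 CPM in WT and 952 and 1206 CPM in Cnp-/-. These transcripts were concentrated in few nuclei. Nuclei with 5 or more UMIs of the 10 markers numbered 19 of 192 (9.90%) and 12 of 205 (5.85%) in 5xFAD and 6 of 186 (3.23%) and 12 of 288 (4.17%) in Cnp-/- 5xFAD, and held 93.9% to 99.2% of the marker UMIs. A single nucleus held 1127 of the 2748 marker UMIs in 5xFAD 1 and 1401 of 3417 in 5xFAD 2, against at most 146 of 521 and 211 of 1057 in Cnp-/- 5xFAD.

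Without those nuclei, an alternative added after the values were seen, 0 of 10451 genes were called by edgeR and 269 had an unadjusted p under 0.05. Of the 47 genes 14 were still tested, with a median log2 fold change of −0.97. Pde1a was then at −1.52 and Rbfox1 at −0.91. The nuclei were chosen by neuronal transcripts, Meg3, Grin1 and Snap25 of the called genes among them, so these values are a description. Smooth muscle and fibroblast genes summed to 319.7 and 186 against 70.1 and 128 CPM with all nuclei, 5 of 6 tested below 0 and 4 lower without overlap. OPC genes lay below 0 in 7 of 8 tested, with a median of −1.36 and 5 lower without overlap, where 20.7% of all genes tested were lower. Without the neuronal-marker nuclei both lists lay below 0 in every gene tested, 6 and 8, with medians of −1.48 and −1.81. Their part in the calls was not tested. The mean percent of mitochondrial reads in all endothelial nuclei was 0.350 and 0.365 in 5xFAD and 0.189 and 0.278 in Cnp-/- 5xFAD. It was 0.229 and 0.476 in WT and 0.322 and 0.314 in Cnp-/-, and its part was not tested either. With all nuclei the number of called genes was 5 without 5xFAD 1, 0 without 5xFAD 2, 0 without Cnp-/- 5xFAD 1 and 4 without Cnp-/- 5xFAD 2, and DESeq2 called 143, all lower.

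**Figure D5:**
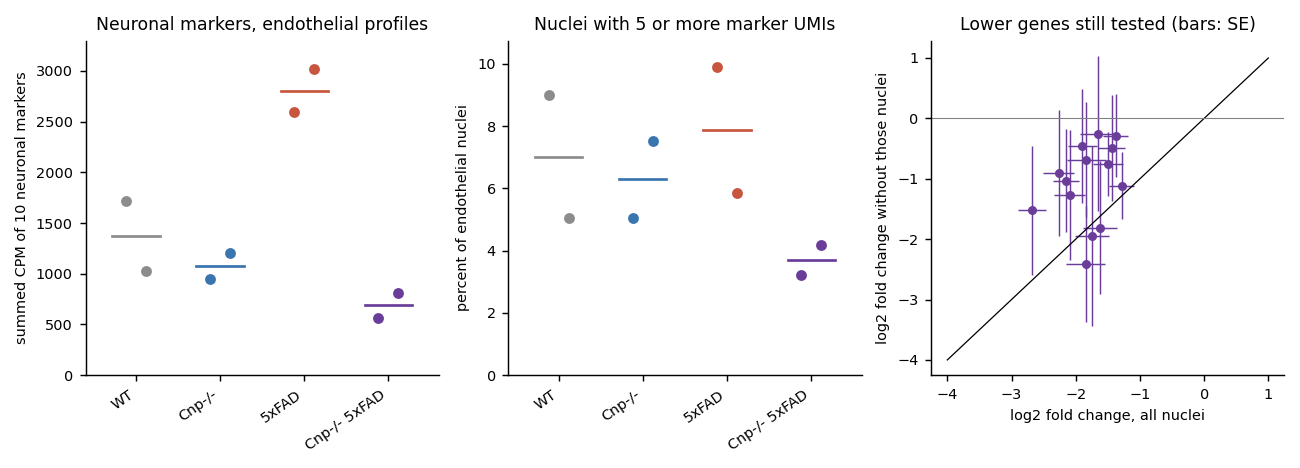
Left, summed CPM of 10 neuronal marker genes in endothelial profiles of the 8 libraries. Middle, percent of endothelial nuclei with at least 5 UMIs of these genes. Right, log2 fold change, Cnp-/- 5xFAD minus 5xFAD, of the 14 called genes that could still be tested, with all nuclei and without those nuclei. Both 5xFAD libraries have the highest summed level, and most points lie above the line of equality.

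Barrier genes had slightly higher values, fewer of them once the nuclei with neuronal transcripts were left out. All 20 blood-brain barrier genes tested lay above 0 and 17 were higher without overlap, where 19.5% of all genes tested were, with a median log2 fold change of 0.27 beside 0.03 over all genes. Flt1 (ENSMUSG00000029648, chr5:147561604-147726011), a VEGF receptor, measured 4581 and 4305 against 5834 and 5528 CPM (log2 fold change 0.37 ± 0.09 (SE), adjusted p 0.15). Slco1a4, an organic anion transporter, measured 2829 and 2918 against 3565 and 3518 CPM, and the thyroid hormone transporter Slco1c1 1619 and 1665 against 1795 and 1842 CPM. None was called. Without the neuronal-marker nuclei 17 of 20 lay above 0, with a median of 0.15, and 7 were higher and 1 lower without overlap, where 13.9% and 18.1% of the genes tested in that setting were. Without amyloid the median of the list was −0.02. Of 12 pericyte genes tested in the endothelial profiles 11 lay above 0, with 6 higher without overlap and a median log2 fold change of 0.26. The pericyte markers summed to 4144 and 4055 against 4546 and 4263 CPM, and their part in the barrier gene values was not tested.

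Antigen-presentation and interferon genes of endothelial cells lay above 0 in 19 of 20, with a median of 0.30, and in 15 of 20 with a median of 0.12 without the neuronal-marker nuclei. H2-D1 measured 389 and 353 against 419.6 and 498 CPM. Endothelial activation genes had a median of 0.12 over 8 tested, and 0.58 without amyloid. Vwf, the von Willebrand factor, measured 137 and 144 against 139 and 122 CPM. Basement membrane and matrix genes lay above 0 in 6 of 12, with a median of 0.04. Endothelial cells made up 2.58% and 2.84% of nuclei in 5xFAD and 2.66% and 3.41% in Cnp-/- 5xFAD, which overlap.

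In pericytes, with summed profiles of 27914 to 103832 UMIs, 0 of 1958 genes were called (0%), 58 had an unadjusted p under 0.05 and DESeq2 called 0. The pericyte genes lay above 0 in 5 of 10, with a median of −0.02. Atp13a5, a transporter marking pericytes, measured 5557 and 6509 against 4819 and 6846 CPM, and Vtn, which encodes vitronectin, 1926 and 2114 against 1327 and 2154 CPM. Both overlapped, as did all but 1 of the pericyte genes, which was higher, where 13.1% of all genes tested were higher and 14.4% lower without overlap. The smooth muscle and fibroblast genes summed to 1069 and 426 against 551 and 231 CPM in these profiles. The count of called genes was 8 without Cnp-/- 5xFAD 1, 7 without Cnp-/- 5xFAD 2, 1 without 5xFAD 1 and 0 without 5xFAD 2, and a difference smaller than the spread between these small profiles was not detectable at this depth.

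No gene was called in the same direction in more than 1 glial and vascular class. Cadps was called in opposite directions in MOLs, where it rose, and in endothelial cells, where it measured 180.1 and 192 CPM in 5xFAD and 43.1 and 63.9 CPM in Cnp-/- 5xFAD (log2 fold change −1.76 ± 0.23 (SE), adjusted p 0.02). Without the endothelial nuclei that held neuronal transcripts Cadps was at 13.5 and 2.36 against 9.33 and 9.55 CPM there, overlapped and was too low to be tested. For comparison with the source of amyloid, the neuronal profiles gave 2 called genes of 21584 (0.00927%), both lower, beside 0.0324% between Cnp-/- and WT. An unadjusted p under 0.05 was reached by 1472 genes there. Without overlap 10.8% of all genes tested were higher and 28.2% lower. The gene A830036E02Rik measured 57.2 and 66.4 CPM in 5xFAD and 0.651 and 0.751 CPM in Cnp-/- 5xFAD (adjusted p 0.0024), and the keratin Krt20 2.77 and 3.49 against 0.180 and 0.148 CPM (adjusted p 0.018). Without amyloid A830036E02Rik measured 89.3 and 59.1 CPM in WT and 0.713 and 0.436 CPM in Cnp-/-. Both lie on chromosome 11, 1.15 and 1.14 Mb from Cnp, and A830036E02Rik overlaps the position of Krt12. App measured 413 and 397 against 383 and 371 CPM, without overlap. Thy1, whose promoter drives the transgenes, measured 58.9 and 36.4 against 27.4 and 24.9 CPM (log2 fold change −0.80 ± 0.32 (SE), adjusted p 0.73).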

How the data were processed

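Nuclei from brain hemispheres (4 genotypes, 2 libraries each) were profiled with the 10x Genomics 3' protocol. Per the labels and the study's methods, the authors used Cell Ranger 6.1.2 with mm10 and CellBender 0.2.0 and then clustered and annotated the nuclei. They deposited UMI counts per nucleus and gene for 32285 genes, with a cell type, a microglial subtype and quality columns such as the percent of mitochondrial reads, which entered no test. Total UMIs computed here matched the deposited totals in all nuclei (0 differed). The treatment of doublets and of intronic reads is not given in the sources used here.

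Counts were summed per library and annotated class, and per microglial subpopulation, keeping profiles of at least 20 nuclei. Depth per class profile therefore limits precision, from 27914 UMIs in pericytes to 2548569 in astrocytes among the glial and vascular classes of the 8 libraries, and intervals from replicates cover these libraries only. Genes were filtered with filterByExpr and tested with the edgeR 4.0.16 quasi-likelihood test (R 4.3.3, TMM normalization, Benjamini-Hochberg adjustment) over all genotypes, for Cnp-/- 5xFAD minus 5xFAD, for Cnp-/- minus WT and for the difference of these. The SE printed with an edgeR log2 fold change is its absolute value divided by the square root of the quasi-likelihood F statistic. It was not estimated separately. Class shares were compared with the exact two-sided permutation test. Alternatives were no filter on low counts, DESeq2 1.42.0 and its size factors, the replicate number as a block, the 4 libraries alone, each library left out, microglia without MyTE nuclei or as in the all-cell annotation, amyloid-DAM profiles alone, and, for shares, other denominators and nuclei of at least 1000 UMIs. After seeing the data, the endothelial fit without nuclei that hold 5 or more UMIs of 10 neuronal markers and, for neurons, a block with crossed numbers were added. The code was run on simulated counts whose spread between libraries was smaller than that estimated in any class here. That run therefore does not show how well changes are recovered in these data.

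Named genes were, per class, the called genes without overlap between genotypes with the 5 smallest p in each direction, 2 to 4 members of each gene list by highest mean CPM, Cnp, and the 3 genes with the smallest p for the difference of effects. Other named genes are said to be chosen for their values. Members and lists were chosen with earlier results of these data known. Gene positions are those of GENCODE M21 (GRCm38). Plots were drawn with matplotlib 3.10.9 in Python 3.11.15. Some genes are not reported here.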

Additional observations from a re-analysis of the deposited data

Results flagged for a closer look

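The effect of Cnp loss in microglia differed between the amyloid and the amyloid-free background, by a test of the difference itself (edgeR quasi-likelihood test over all genes), for 4 genes. The log2 difference was −6.58 for Cacna1a (adjusted p 0.0079), −3.62 for Prkg1 (0.022), −2.54 for Ank (0.027) and −1.67 for Nkain2 (0.027). In each, both Cnp-/- libraries were above both WT libraries, while the Cnp-/- 5xFAD and 5xFAD libraries were at similar levels. Nkain2 measured 811 and 736 CPM in WT, 2681 and 2160 CPM in Cnp-/-, 1534 and 1566 CPM in 5xFAD and 1440 and 1667 CPM in Cnp-/- 5xFAD. Cacna1a was at 0 UMIs in WT 1, so its fitted size depends on how counts of 0 are handled. Within homeostatic microglia alone 0 of 4566 genes passed the edgeR test of the difference. All 4 calls were lost without WT 1, at −4.85 for Cacna1a (adjusted p 0.071), −3.37 for Prkg1 (0.16), −3.19 for Ank (0.071) and −1.82 for Nkain2 (0.071). The Cacna1a call held without each of the other libraries. The Ank and Nkain2 calls were lost without Cnp-/- 1 and without any one of the 4 amyloid libraries, and the Prkg1 call without 5xFAD 1, 5xFAD 2 or Cnp-/- 5xFAD 2.

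Subpopulation shares of microglia and macrophages differed between genotypes as well. The authors named amyloid-DAM and myelin-DAM from the genotypes of their nuclei, so the shares of these classes are a description and not a test. From WT to Cnp-/-, homeostatic microglia went from 77.9% and 68.6% to 39.0% and 46.7%, myelin-DAM from 0.503% and 0% to 30.5% and 26.3%, MyTE from 5.53% and 4.29% to 21.7% and 14.6%, and amyloid-DAM from 0.503% and 0% to 5.15% and 3.65%. From 5xFAD to Cnp-/- 5xFAD, homeostatic microglia went from 40.4% and 44.1% to 30.4% and 36.3%, myelin-DAM from 1.02% and 2.06% to 16.6% and 13%, MyTE from 9.55% and 8.82% to 11.6% and 14.1%, and amyloid-DAM from 37.4% and 37.4% to 35.4% and 29.7%. The 6 oligodendrocyte marker genes in microglia summed to 1184 and 951 CPM in WT, 3787 and 1942 CPM in Cnp-/-, 1787 and 1799 CPM in 5xFAD and 1894 and 2379.9 CPM in Cnp-/- 5xFAD. The part of these shares and transcripts in the differences was not tested.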

How the results depend on the processing

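With 2 libraries a side, counts of called genes depended on the processing, and the cause was not tested. Leaving out each library in turn gave 0 to 1 called genes in MOLs, 0 to 7 in newly formed oligodendrocytes, 0 to 3 in macrophages, 0 to 5 in endothelial cells, 0 to 8 in pericytes, 6 to 27 in MyTE microglia, 0 to 2 in amyloid-DAM and 0 to 2 in neurons. For the difference of the Cnp effect with and without amyloid it gave 0 to 2 in newly formed oligodendrocytes, OPCs and homeostatic microglia, 1 to 16 in microglia, 0 to 112 in endothelial cells, 0 to 20 in pericytes and 0 to 1 in neurons. Without Cnp-/- 1 the pericyte difference could not be fitted.

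Without a filter on low counts 195 genes were called in MOLs, 68 in newly formed oligodendrocytes, 97 in OPCs, 109 in astrocytes, 28 in microglia, 622 in endothelial cells, 3 in homeostatic microglia, 32 in MyTE microglia and 10 in amyloid-DAM. For the difference of effects the unfiltered counts were 44 in MOLs, 5 in newly formed oligodendrocytes, 73 in OPCs, 389 in astrocytes, 131 in microglia, 297 in endothelial cells, 15 in pericytes and 12 in homeostatic microglia. DESeq2 called 186 in MOLs, 4 in astrocytes, 7 in microglia, 0 in macrophages, 143 in endothelial cells, 3 in MyTE microglia, 2 in amyloid-DAM and 106 in neurons, and for the difference 11 in MOLs, 9 in astrocytes, 67 in microglia, 34 in endothelial cells and 58 in neurons. The 4 libraries alone gave 0 in MOLs, 0 in newly formed oligodendrocytes, 1 in macrophages, 326 in endothelial cells, 7 in MyTE microglia and 1 in neurons. Endothelial cells without neuronal-marker nuclei gave 0.

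The labels number the replicates but do not say that a number marks a shared litter or day. Deviations of same-numbered libraries correlated at 0.0028 in MOLs, 0.128 in newly formed oligodendrocytes, 0.081 in OPCs, 0.218 in astrocytes, 0.0176 in microglia, 0.101 in endothelial cells and −0.113 in neurons, over 0.1 in 3 of 7 classes, and the libraries were not treated as paired. With the replicate block 1 gene was called in MOLs, 0 in newly formed oligodendrocytes (Eml1 at an adjusted p of 0.14), 27 in endothelial cells, 2 in pericytes and 1 in neurons (1 also with crossed numbers), and for the difference 1 (Cacna1a) in microglia, 1 in endothelial cells and 12 in pericytes.

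As shares of glial and vascular nuclei, the difference was 1.53 points for MOLs, −3.93 for astrocytes, 2.02 for microglia (−0.53 of all nuclei, with overlap) and 2.76 for endothelial cells, and with nuclei of at least 1000 UMIs that of amyloid-DAM was −8.71. DESeq2 size factors in edgeR changed no count by over 1.5 times. Of the values of named genes under the alternatives, 375 kept direction and side of the threshold, among them genes called in neither setting. A call was lost in 92 and gained in 26, all with the same direction. Genes that could not be tested under an alternative were not counted, so 375 is not a count of calls that held.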
